A study of Mus musculus with 14 samples.

Results

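Kainate receptors are one of the families of ionotropic glutamate receptors, and their 5 subunit genes (Grik1 to Grik5) together with the genes of the auxiliary proteins Neto1 and Neto2 make up the 7 genes described here. They were found by matching the gene identifiers of the count tables to their symbols in GENCODE (mouse build GRCm38), and all 7 were present among 53465 gene rows. RNA came from the anterior cingulate cortex (ACC) of the inbred strains AKR/J (AKR below) and C57BL/6NJ (B6N below). Mice were either naive or had gone through observational fear conditioning (OFL in the labels), in which a mouse watches another mouse being shocked. There were 3 libraries of AKR after OFL, 4 of naive AKR, 3 of B6N after OFL and 4 of naive B6N, 14 in all. The labels name no transgene or drug, and all groups share the tissue, the Trizol extraction and the TruSeq library kit. Whether each library is a different animal is not stated in the labels, so the p-values below refer to the scatter among libraries, part or all of which may be technical.

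Kainate receptors are tetramers of subunits that open a cation channel when glutamate binds. Grik1, Grik2 and Grik3 encode the low-affinity subunits GluK1, GluK2 and GluK3, which can form channels by themselves, whereas Grik4 and Grik5 encode the high-affinity subunits GluK4 and GluK5, which need a low-affinity partner. Neto1 and Neto2 encode transmembrane proteins with CUB domains that bind the receptor and slow its closing. In cortex these receptors act on both sides of the synapse, where they shape transmitter release and the excitability of principal cells and interneurons.

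The 5 subunits are related in sequence, and reads were assigned to genes by position. The stretch in which all 5 coding sequences are jointly most alike is a guide to how far the counts can be kept apart. It was taken as the 45 bases of Grik2 whose best ungapped match in the other coding sequences had the highest lowest identity. The sequences are read from the GENCODE transcripts, and capitals mark bases that differ from Grik2.
Grik1: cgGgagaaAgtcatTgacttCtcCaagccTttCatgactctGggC
Grik2: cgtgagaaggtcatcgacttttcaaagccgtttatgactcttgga
Grik3: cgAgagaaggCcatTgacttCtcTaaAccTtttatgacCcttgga
Grik4: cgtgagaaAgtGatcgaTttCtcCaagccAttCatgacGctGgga
Grik5: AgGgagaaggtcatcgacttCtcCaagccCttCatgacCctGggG
In this stretch the other subunits differed from Grik2 at 8 bases (Grik3) or 9 bases (Grik1, Grik4 and Grik5) of 45. It was chosen over all 5 genes together, and some pairs are identical over 31 bases elsewhere. No pair of the 7 genes had more than 8 stretches of 31 bases in common, against 5200 to 13318 such stretches per gene. Sharing of reads between the subunits is therefore limited to short stretches. On the strand opposite to its own, Neto1 has 219 of its 8352 exonic bases (2.62%) under exons of the gene AC113599.1, and Neto2 has 20 bases under Mir8109. The exons of the 5 Grik genes have no such overlap, and Grik4 has 59 bases on its own strand in common with Gm24420.

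Total counts per library were 13487311 to 14396289 in AKR after OFL, 19073921 to 23782061 in naive AKR, 14063573 to 14526253 in B6N after OFL and 20583264 to 25780227 in naive B6N. Every member was well above the counting floor, from 361 reads in the lowest library for Grik4 to 8515 in the highest for Grik5, and all 7 passed edgeR's expression filter in each comparison. Cortical marker genes were high, with 6 genes of glutamatergic neurons summing to 1000 to 1980 CPM (counts relative to library size, scaled by the between-library method TMM) and 8 genes of inhibitory neurons to 659 to 1190 CPM. Lower sums were found for 5 genes of striatal projection neurons, at 27.1 to 42.9 CPM. A list of 4 genes of hippocampal CA3 and dentate neurons summed to 45.4 to 54.6 CPM in OFL libraries and 72.4 to 83.3 CPM in naive ones. The part of neighbouring tissue in the samples was not tested. The OFL and naive libraries stand in separately deposited tables and differ in RNA classes, with histone genes at 0.035% to 0.0375% of counts in OFL libraries against 0.00455% to 0.00634% in naive ones, and mitochondrial genome genes at 0.752% to 0.85% in OFL libraries against 1.56% to 1.9% in naive ones. Conditioning and library set cannot be told apart, which bears on every OFL minus naive difference below.

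The genes are protein-coding and lie on 7 chromosomes of GRCm38. Of the low-affinity subunits, Grik1 (ENSMUSG00000022935) spans chr16:87895900-88290265 on the minus strand, Grik2 (ENSMUSG00000056073) chr10:49094833-49788766 on the minus strand and Grik3 (ENSMUSG00000001985) chr4:125490700-125714173 on the plus strand. Of the high-affinity subunits, Grik4 (ENSMUSG00000032017) spans chr9:42518135-42944493 and Grik5 (ENSMUSG00000003378) chr7:25009849-25072346, both on the minus strand. Neto1 (ENSMUSG00000050321) spans chr18:86394952-86506718 on the plus strand and Neto2 (ENSMUSG00000036902) chr8:85636588-85700924 on the minus strand.

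Grik5 was the most abundant of the 7 mRNAs in every group. Levels were compared between genes only per kilobase of merged exons, and on that scale (CPM per kb) Grik5 averaged 36.6 ± 4.41 in AKR after OFL (SD, n = 3), 64.7 ± 3.90 in naive AKR (SD, n = 4), 30.3 ± 3.46 in B6N after OFL (SD, n = 3) and 57.0 ± 1.58 in naive B6N (SD, n = 4). In naive mice of both strains the order below it was Grik3, Neto2, Neto1, Grik4, Grik2 and Grik1. Grik3 averaged 18.3 CPM per kb in naive AKR and 17.9 in naive B6N, Neto2 12.5 and 11.5, and Grik1, the lowest, 2.94 and 2.95. Only the neighbours Grik4 and Grik2 overlapped between libraries in this order. In OFL libraries Neto2 (19.7 CPM per kb in AKR and 18.0 in B6N) stood above Grik3 (16.7 and 16.2), with overlapping libraries in B6N, and Grik2 (11.4 and 11.5) stood above Neto1 (8.71 and 8.37). Grik4 and Grik1 were the lowest, and they overlapped in B6N after OFL. Merged exons join those of all annotated isoforms, so a gene with many alternative exons has a low value on this scale.

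**Figure D1:**
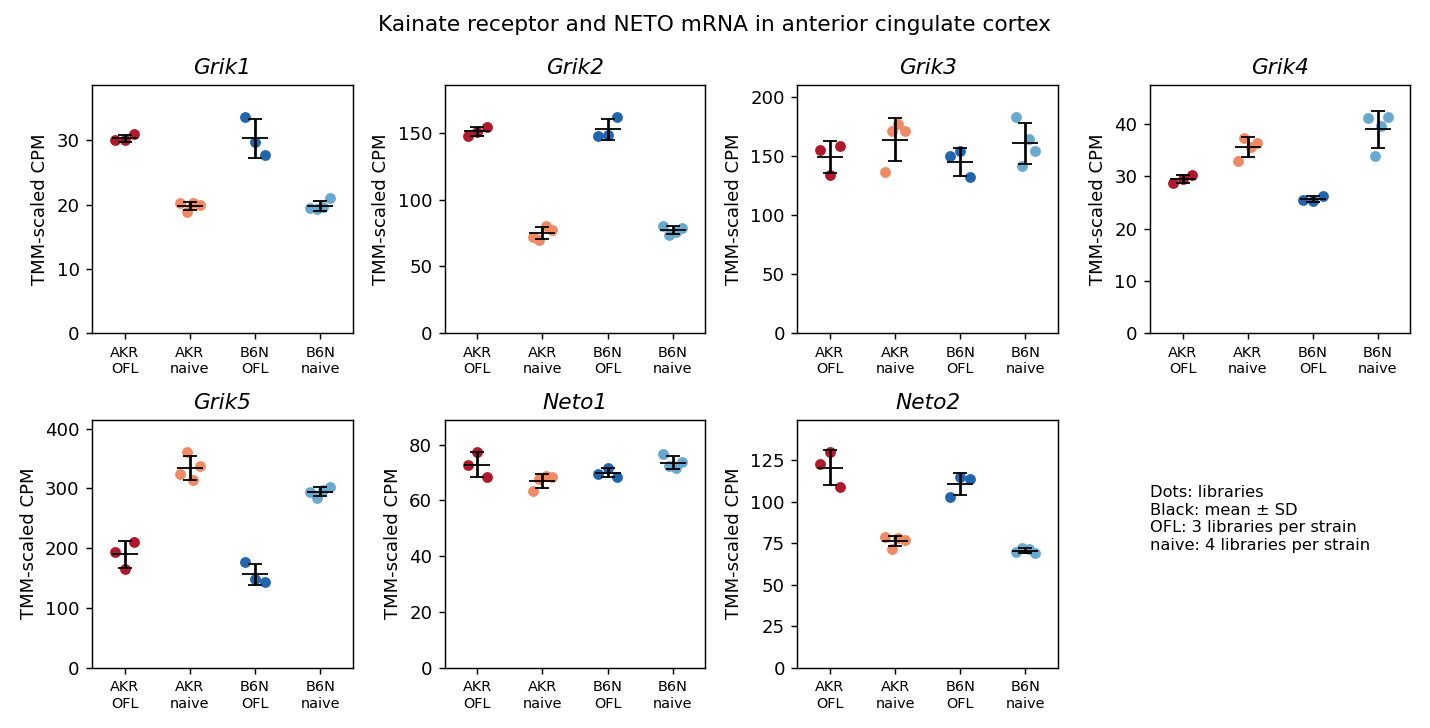
TMM-scaled CPM of each of the 7 genes (y axes, each starting at 0) in AKR after OFL, naive AKR, B6N after OFL and naive B6N, with a dot per library and black bars for mean ± SD (n = 3 or 4). Grik1, Grik2 and Neto2 sit higher in both OFL groups, Grik5 and Grik4 lower, and Grik3 and Neto1 stay within a narrow band.

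As shares of the summed Grik level per kb, the high-affinity subunits Grik4 and Grik5 made up 56.0% ± 1.46 in AKR after OFL (SD, n = 3), 72.5% ± 1.97 in naive AKR (SD, n = 4), 51.7% ± 1.95 in B6N after OFL (SD, n = 3) and 70.4% ± 1.38 in naive B6N (SD, n = 4). Grik5 alone held 49.3%, 66.3%, 45.2% and 63.2% in the same groups. The share of Grik2 was 15.5% in AKR after OFL and 5.81% in naive AKR, and 17.3% in B6N after OFL and 6.47% in naive B6N. The OFL libraries had a lower share of high-affinity subunit mRNA in both strains, with no overlap (50.2% to 57.3% in the OFL libraries against 68.5% to 74.2% in the naive ones). The shares rest mainly on Grik5 and Grik2, whose OFL minus naive differences were within 0.1 of 0 on the log2 scale once offsets for GC content and exon length were used (described below). The ratio of Neto1 to Neto2 per kb was 0.443 ± 0.0164 in AKR after OFL (SD, n = 3), 0.645 ± 0.0422 in naive AKR (SD, n = 4), 0.465 ± 0.0289 in B6N after OFL (SD, n = 3) and 0.765 ± 0.0357 in naive B6N (SD, n = 4). No test was run on these shares and ratios, which combine the members.

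**Figure D2:**
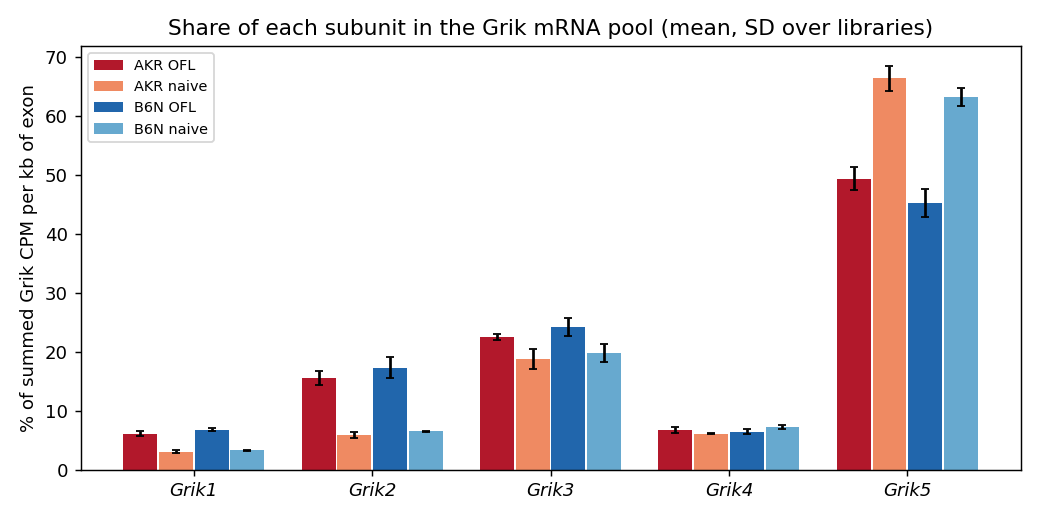
Share of each Grik gene in the summed Grik level per kb of exon (y axis, %), with bars for the mean and error bars for the SD over libraries of AKR after OFL, naive AKR, B6N after OFL and naive B6N. Grik5 holds the largest share in every group, from 45.2% in B6N after OFL to 66.3% in naive AKR.

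The first comparison asked whether the strains differ in naive mice. Grik5 and Neto2 were higher and Neto1 was lower in naive AKR, each by less than 1.2-fold, and the other 4 genes did not pass (edgeR's quasi-likelihood test, with 0.05 as the limit of the adjusted p). Of the 17645 genes tested, 37.8% passed (18.3% higher and 19.5% lower in AKR), so 3 of 7 members is near the background. Grik5 was at 324, 361, 314 and 338 CPM in the 4 naive AKR libraries, against 294, 284, 298 and 303 CPM in the 4 naive B6N libraries. Every AKR library was above every B6N library. The log2 difference was 0.18 (SE 0.04, 1.14-fold, edgeR adjusted p = 0.00161). Groups without overlap were found for Grik5 and Neto1, 2 of 7 members, and for 34.7% of all genes.

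The auxiliary genes differed in opposite directions in naive mice. Neto1 was at 63.2, 67.7, 68.6 and 68.4 CPM in naive AKR, against 76.7, 72.2, 71.7 and 73.6 CPM in naive B6N, and all AKR libraries were below all B6N libraries. Its log2 difference was -0.13 (SE 0.04, edgeR adjusted p = 0.0125), and the call ended without B6N naive replicate 1 (adjusted p = 0.0545). Neto2 was at 78.7, 71.8, 78.3 and 76.7 CPM in naive AKR, against 69.8, 72.3, 71.4 and 69.1 CPM in naive B6N. A single AKR library, replicate 2, lay within the B6N range. The log2 difference of Neto2 was 0.11 (SE 0.04, edgeR adjusted p = 0.0321). Of 8 fits with a library removed this call held in only 2: it ended without AKR naive replicate 1, 3 or 4 and without B6N naive replicate 1, 3 or 4 (adjusted p 0.0519 to 0.0921), and it also ended with DESeq2 (0.0526), with no filter on low counts (0.0516) and in a fit of all 14 libraries (0.087).

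Among the low-affinity subunits no strain difference passed in naive mice, and the intervals were narrow. Grik1, which in cortex is known mainly from interneurons, ranged from 18.9 to 20.2 CPM in naive AKR and from 19.3 to 21.0 CPM in naive B6N, and the 95% interval of the log2 difference ran from -0.12 to 0.11. Grik2, the main partner subunit of forebrain receptors, ranged from 69.9 to 80.3 CPM in naive AKR and from 73.9 to 80.5 CPM in naive B6N (interval -0.14 to 0.05). Grik3 ranged from 137 to 177 CPM in naive AKR and from 142 to 183 CPM in naive B6N (interval -0.13 to 0.18). Grik4 was at 32.9, 37.4, 35.7 and 36.3 CPM in naive AKR, against 41.1, 33.8, 39.7 and 41.3 CPM in naive B6N. B6N naive replicate 2 lay among the AKR libraries and the other B6N libraries lay above them. The log2 difference of Grik4 was -0.13 (SE 0.06, edgeR adjusted p = 0.102), and it passed without B6N naive replicate 2 (-0.20, adjusted p = 0.00519).

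After OFL the strain comparison called Grik5 alone. Of 17994 genes tested, 16.4% passed (7.5% higher and 8.86% lower in AKR), and 1 of 7 members is near that background. Grik5 was at 194, 165 and 210 CPM in AKR, against 177, 149 and 144 CPM in B6N, and the lowest AKR library lay below the highest B6N library. The log2 difference was 0.27 (SE 0.08, 1.2-fold, edgeR adjusted p = 0.0205). This call was lost with AKR OFL replicate 1 (adjusted p = 0.0766) or 3 (0.138) removed, with B6N OFL replicate 2 (0.149) or 3 (0.0785) removed, and in DESeq2 (0.231). Grik4 was at 28.7, 29.5 and 30.2 CPM in AKR after OFL, against 25.4, 25.3 and 26.3 CPM in B6N after OFL. All AKR libraries were above all B6N libraries, as for 31.2% of the genes tested, but the log2 difference of 0.19 (SE 0.07) did not pass (edgeR adjusted p = 0.0677).

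Neto1, which was lower in naive AKR, was at 72.5, 77.3 and 68.5 CPM in AKR after OFL, against 69.5, 71.6 and 68.5 CPM in B6N after OFL, and the groups overlapped (log2 0.05, interval -0.07 to 0.17). Neto2 was at 123, 130 and 109 CPM in AKR, against 103, 115 and 114 CPM in B6N. Its log2 difference was 0.12 (edgeR adjusted p = 0.223), and it passed without AKR OFL replicate 3 (adjusted p = 0.0417). The intervals of the low-affinity subunits after OFL were -0.17 to 0.15 for Grik1, -0.12 to 0.08 for Grik2 and -0.10 to 0.17 for Grik3. Differences of more than about 1.2-fold in these 3 genes lie outside those intervals.

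**Figure D3:**
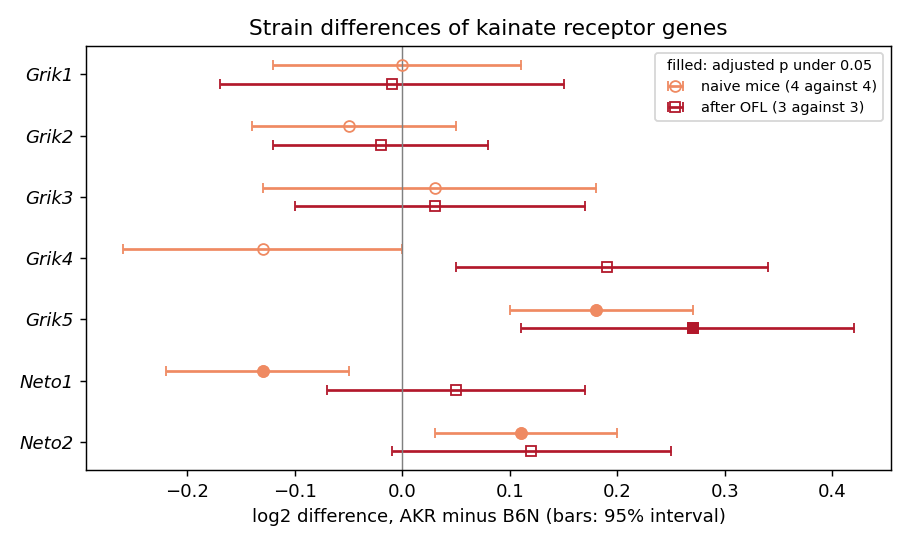
Log2 difference AKR minus B6N (x axis) of the 7 genes in naive mice (circles, 4 against 4 libraries) and after OFL (squares, 3 against 3), with 95% intervals and filled symbols for an adjusted p under 0.05. Grik5 is above 0 in both conditions (0.18 and 0.27), while Grik4 lies at -0.13 in naive mice and 0.19 after OFL.

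The interaction, the OFL minus naive difference in AKR minus that in B6N, passed for Grik4 alone. Of 20291 genes tested, 5.15% passed, 3.61% with a positive interaction like that of Grik4 and 1.54% with a negative one. Grik4 averaged 29.5 ± 0.754 CPM in AKR after OFL (SD, n = 3) and 35.5 ± 1.92 CPM in naive AKR (SD, n = 4), and 25.7 ± 0.531 CPM in B6N after OFL (SD, n = 3) and 39.0 ± 3.51 CPM in naive B6N (SD, n = 4). In each strain its OFL libraries were below its naive libraries, by a smaller amount in AKR, and the interaction was 0.33 (SE 0.10, edgeR adjusted p = 0.0407). With each library left out in turn the value stayed between 0.30 and 0.40, but the call held in 2 of 14 fits, those without AKR naive replicate 2 and without B6N naive replicate 2. It ended without any one of the other 12 libraries (adjusted p 0.0515 to 0.102). The interaction of Neto1 was 0.19 (SE 0.07, edgeR adjusted p = 0.102) and did not pass, and the other 5 members lay between 0.00 and 0.09.

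Setting OFL against naive libraries of the same strain gave the largest differences of these genes. Of the 20291 genes tested, 78.7% passed in AKR (39.8% higher and 38.8% lower) and 78.4% in B6N (40% higher and 38.4% lower), so 6 of 7 members in AKR and 5 of 7 in B6N is near the background. No overlap between OFL and naive libraries was found for 5 members in AKR and 6 in B6N, against 76.7% of all genes in each strain. The median absolute log2 difference over all genes was 0.62 in AKR and 0.61 in B6N.

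Of the low-affinity subunits, Grik1 and Grik2 were higher in the OFL libraries. Grik2 was at 148, 151 and 155 CPM in AKR after OFL, against 72.4, 69.9, 80.3 and 77.2 CPM in naive AKR, a log2 difference of 1.02 (SE 0.05, 2.02-fold, edgeR adjusted p = 1.34e-16). In B6N it was at 148, 149 and 162 CPM after OFL, against 73.9 to 80.5 CPM in naive mice (log2 0.98, SE 0.05, edgeR adjusted p = 2.36e-16). The OFL libraries lay above every naive library in both strains. Grik1 was at 30, 30 and 31 CPM in AKR after OFL, against 20.2, 18.9, 20.2 and 19.9 CPM in naive AKR (log2 0.62, SE 0.06, edgeR adjusted p = 2.06e-09), and the difference in B6N was also 0.62. Grik3, whose product is known from presynaptic and deep layer receptors, was at 155, 134 and 159 CPM in AKR after OFL, against 137, 171, 177 and 171 CPM in naive AKR. The groups overlapped and the difference did not pass in AKR (-0.13, SE 0.08, edgeR adjusted p = 0.126) or in B6N (-0.15, SE 0.08, edgeR adjusted p = 0.0871). It passed in AKR without AKR naive replicate 1 (-0.21, adjusted p = 0.0105) and in B6N without AKR naive replicate 1 (adjusted p = 0.047) or B6N naive replicate 2 (adjusted p = 0.0179). With no filter on low counts it passed in both strains, at -0.16 in AKR (edgeR adjusted p = 0.00158) and -0.19 in B6N (edgeR adjusted p = 0.00026).

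The high-affinity subunits were lower in the OFL libraries. Grik5 was at 165 to 210 CPM in AKR after OFL and 314 to 361 CPM in naive AKR, a log2 difference of -0.82 (SE 0.07, edgeR adjusted p = 9.85e-12). In B6N it was at 144 to 177 CPM after OFL and 284 to 303 CPM in naive mice, a log2 difference of -0.91 (SE 0.07, edgeR adjusted p = 1.36e-12). Grik4 differed by -0.27 in AKR (SE 0.07, edgeR adjusted p = 0.000678) and by -0.60 in B6N (SE 0.07, edgeR adjusted p = 7.25e-09). The AKR call ended when only protein-coding genes entered scaling and test (-0.15, adjusted p = 0.0545).

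Of the auxiliary genes, Neto2 was higher in the OFL libraries and Neto1 differed little. Neto2 was at 109 to 130 CPM in AKR after OFL and 71.8 to 78.7 CPM in naive AKR (log2 0.66, SE 0.05, edgeR adjusted p = 9.67e-12), and at 103 to 115 CPM in B6N after OFL and 69.1 to 72.3 CPM in naive B6N (log2 0.64, SE 0.05, edgeR adjusted p = 1.89e-11). Neto1 differed by 0.12 in AKR (SE 0.05, edgeR adjusted p = 0.0256) and by -0.08 in B6N (SE 0.05, edgeR adjusted p = 0.152), where the value was 0.06 with protein-coding genes only. The AKR call of Neto1 ended without AKR naive replicate 1 (adjusted p = 0.0808), AKR OFL replicate 1 (0.0583) or AKR OFL replicate 2 (0.232), and with no filter on low counts (0.172).

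The members that were higher and those that were lower differed in base composition. The longest transcript had a GC content of 36.5% in Neto2, 37.9% in Grik2, 39.6% in Neto1, 47.9% in Grik1, 52.2% in Grik4, 54.2% in Grik3 and 62.3% in Grik5. Over protein-coding genes with at least 5 CPM on average, the median OFL minus naive difference moved with the same property. In 577 genes under 40% GC it was 0.58 in AKR and 0.60 in B6N, in 2987 genes of 45% to 50% it was 0.10 and 0.09, and in 594 genes of 60% or more it was -0.81 and -0.80. It also moved with exon length, from -0.51 and -0.49 in 1040 genes with under 2000 exonic bases to 0.40 and 0.37 in 2505 genes with at least 8000. Grik2 has 13246 exonic bases and Grik5 has 5168.

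**Figure D4:**
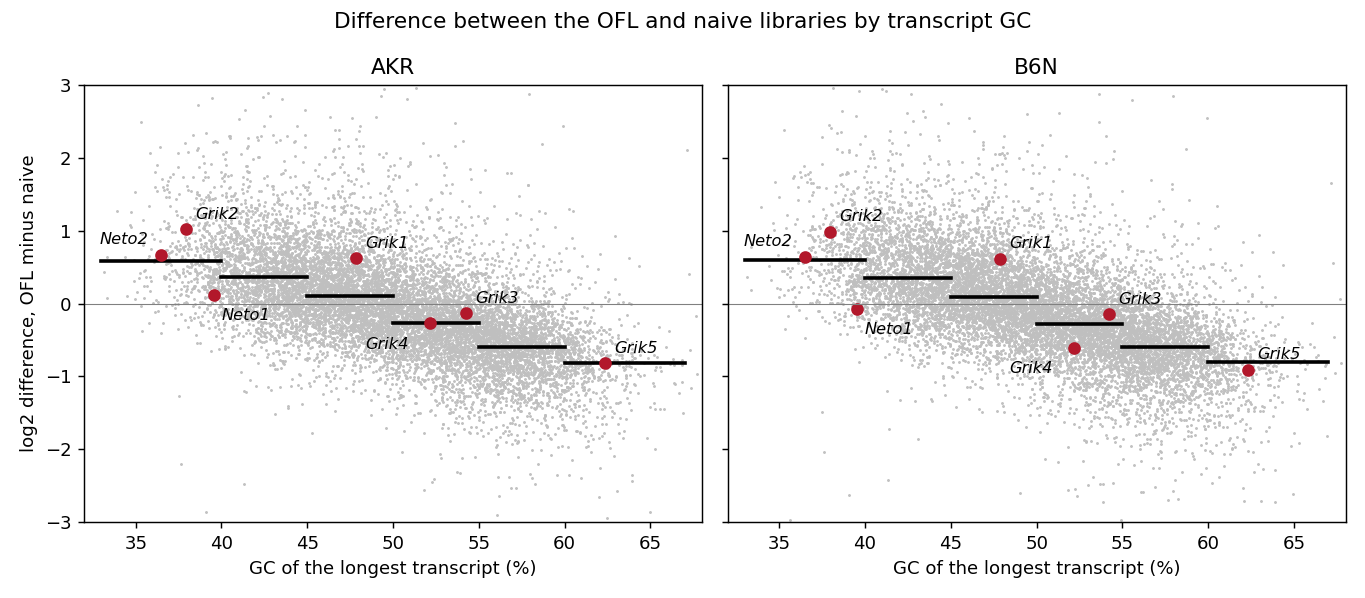
Log2 difference OFL minus naive (y axis) against the GC content of the longest transcript (x axis, %) in AKR and B6N, with a grey dot per protein-coding gene, black lines for the median of each GC range and red dots for the 7 members. Neto2 and Grik5 lie close to the median of their GC range in both strains, while Grik1 and Grik2 lie above it and Neto1 below it. Grik3 lies slightly above its median, and Grik4 lies near it in AKR and below it in B6N. Genes past ±3 are outside the frame.

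Each comparison was therefore fitted again with an offset for every library, smoothed on GC content and exon length, an alternative chosen after the data were seen. The offsets were estimated from the same libraries, so they take out any difference that follows GC content or exon length, whatever its source. That source was not tested. With the offsets the OFL minus naive difference of Grik2 was -0.05 in both strains (edgeR adjusted p = 0.317 in AKR and 0.296 in B6N), that of Grik5 was 0.04 in AKR and -0.06 in B6N (edgeR adjusted p = 0.474 and 0.304), and that of Neto2 was -0.06 in AKR and -0.09 in B6N (edgeR adjusted p = 0.167 and 0.0338). Grik1 was still higher in the OFL libraries, by 0.45 in AKR (edgeR adjusted p = 4.29e-07) and 0.46 in B6N (edgeR adjusted p = 2.06e-07). Neto1, near 0 without the offsets, was lower with them, at -0.60 in AKR (edgeR adjusted p = 1.96e-11) and -0.79 in B6N (edgeR adjusted p = 7.63e-14). Grik4 was at -0.06 in AKR (edgeR adjusted p = 0.392) and -0.38 in B6N (edgeR adjusted p = 1.64e-05). Grik3 stayed uncalled at 0.06 and 0.08. The subunit shares given above carry no such offset.

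**Figure D5:**
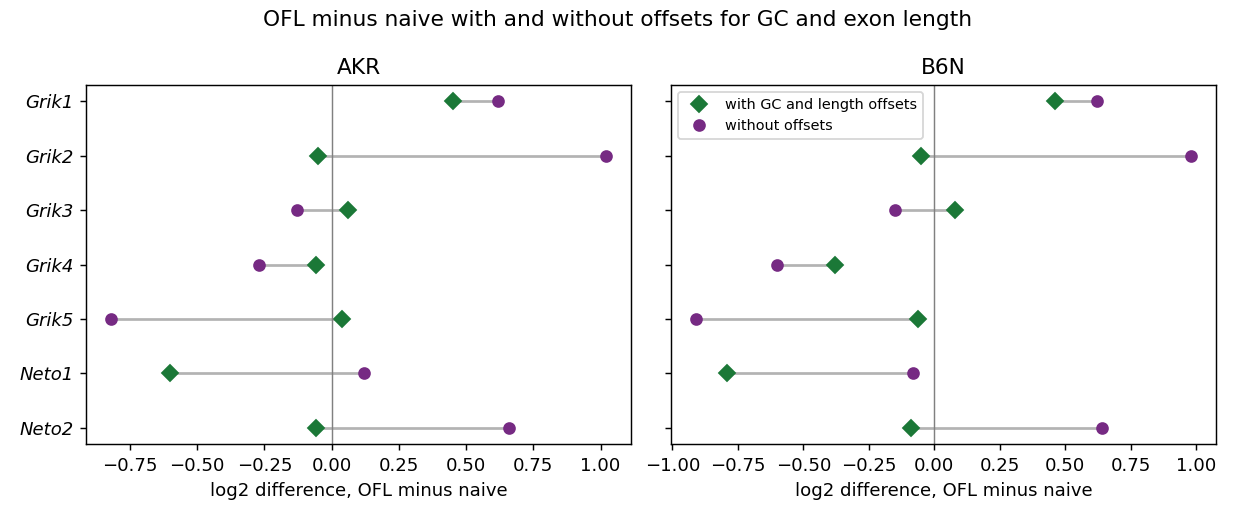
Log2 difference OFL minus naive (x axis) of the 7 genes in AKR and B6N, with offsets for GC content and exon length (diamonds) and without them (circles). Grik2, Grik5 and Neto2 lie within 0.1 of 0 with the offsets, Grik1 stays near 0.45, and Neto1 lies at -0.60 in AKR and -0.79 in B6N.

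The strain differences also moved with the offsets, by smaller amounts. The median AKR minus B6N difference was -0.04 in naive mice and -0.06 after OFL in genes under 40% GC, and 0.10 in both conditions in genes of 60% or more. Grik5, at 62.3% GC, had a strain difference of 0.07 in naive mice (edgeR adjusted p = 0.0684) and 0.15 after OFL (edgeR adjusted p = 0.0819) with the offsets, so neither call held. Neto1 was at -0.09 in naive mice and did not pass (edgeR adjusted p = 0.0985). Neto2 was higher in AKR in both conditions with the offsets, by 0.16 in naive mice (edgeR adjusted p = 0.000786) and 0.18 after OFL (edgeR adjusted p = 0.0107). The interaction of Grik4 was 0.31 (edgeR adjusted p = 0.0479).

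Grik2, Neto2, Grik4 and Grik5 were the members that differed most between OFL and naive libraries on either side of 0 and have an entry in the RefSeq promoter table (5 of the 7 genes do). Their promoters are printed to show the DNA in front of genes that were higher (Grik2 and Neto2) or lower (Grik4 and Grik5). This choice rests on the values without offsets for GC content and exon length. With the offsets Grik2 was at -0.05 in both strains, Neto2 at -0.06 in AKR and -0.09 in B6N. Grik5 was then at 0.04 and -0.06, and Grik4 at -0.06 and -0.38. A link between promoter letters and these differences was not tested. Each is read 5′ to 3′ on the gene's strand in GRCm38.p6, within the 250 bases before the RefSeq start and up to the first base of the GENCODE gene, and capitals mark the letters GCGTG or its reverse complement CACGC, the core known to be bound by dimers of the ARNT family with the aryl hydrocarbon receptor.
Grik2, chr10:49788767-49789004, minus strand: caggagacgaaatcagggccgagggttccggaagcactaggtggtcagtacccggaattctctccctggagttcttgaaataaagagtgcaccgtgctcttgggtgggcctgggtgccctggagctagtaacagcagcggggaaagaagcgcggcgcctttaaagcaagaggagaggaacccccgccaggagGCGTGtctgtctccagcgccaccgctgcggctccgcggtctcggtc
Neto2, chr8:85700925-85701174, minus strand: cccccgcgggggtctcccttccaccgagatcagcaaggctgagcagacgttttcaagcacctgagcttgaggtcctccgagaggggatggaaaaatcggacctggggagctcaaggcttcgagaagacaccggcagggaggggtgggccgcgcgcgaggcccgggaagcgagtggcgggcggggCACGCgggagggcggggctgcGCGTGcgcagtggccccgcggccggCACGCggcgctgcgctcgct
Grik4, chr9:42944494-42944621, minus strand: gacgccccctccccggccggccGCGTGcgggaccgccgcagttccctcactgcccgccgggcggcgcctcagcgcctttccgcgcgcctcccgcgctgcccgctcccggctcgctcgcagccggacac
Grik5, chr7:25072370-25072619, minus strand: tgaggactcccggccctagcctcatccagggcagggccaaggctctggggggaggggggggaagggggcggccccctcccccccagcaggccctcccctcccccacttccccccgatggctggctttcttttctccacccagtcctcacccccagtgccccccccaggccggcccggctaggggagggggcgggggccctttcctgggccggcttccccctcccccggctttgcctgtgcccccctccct
GCGTG occurred on either strand once in Grik2, 3 times in Neto2 (the entry at the gene start), once in Grik4 and not in Grik5, counted in the full 250 bases. Of 32851 promoter entries, 28.2% hold it in that length, a background that is not matched for GC content. The promoter of Grik3, which was not called and is not printed, also holds it (82.0% GC). The related cores ACGTG, known from hypoxia response elements, and TCGTG, known from ARNT2 with NPAS4, were searched on both strands and occur in none of these 4 windows, against 16.6% and 13.3% of all entries. The motifs do not overlap each other except by sharing CGTG. GC content of the 250 bases was 62.8% in Grik2, 72.0% in Neto2, 69.6% in Grik4 and 75.2% in Grik5, against a median of 52.4% over all entries. These 4 windows were thus rich in GC although the transcripts of Grik2 and Neto2 were not. The other Neto2 entry (chr8:85691010-85691259), not printed here, had 42.4% GC and held no GCGTG.

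The genes whose centred log2 profiles over the 14 libraries were most like those of the members called in naive mice were named by root mean square difference among 11617 protein-coding genes. For Grik5 they were Nlgn2 (0.0366), Gga1 (0.0419) and Syn1 (0.0489), on the log2 scale. For Neto1 they were Exoc6b (0.0295), Ppp2r5e (0.0354) and Cpeb3 (0.0366), and for Neto2 they included Cep126 (0.0422) and Fyttd1 (0.0424). Profiles were centred within each condition, so these values describe likeness among libraries of the same set.

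Genes whose products bind, place, edit or modify kainate receptors were counted as a list of 23, of which 22 were tested and the other was not analysed here. In naive mice 6 were higher and 5 lower in AKR, with a median of -0.01 against 0.01 for all genes and a background of 37.8% called. The higher ones included the scaffold genes Cask (0.23, SE 0.03, edgeR adjusted p = 3.02e-05) and Grip1 (0.29, SE 0.06, edgeR adjusted p = 0.000832), and the lower ones the kinase gene Prkca (-0.23, SE 0.03, edgeR adjusted p = 3.84e-05) and Gnao1 (-0.16), encoding a G protein subunit. After OFL 4 were higher and 1 lower in AKR, with a median of 0.03 against 0.00 for all genes and a background of 16.4% called (7.5% higher and 8.86% lower). They included Adarb1 (0.19, SE 0.05, edgeR adjusted p = 0.00801), encoding the enzyme that edits glutamate receptor mRNAs, and the scaffold genes Grip2 (0.36) and Dlg1 (0.13). C1ql2, encoding a secreted ligand of kainate receptors, was higher in AKR in both conditions, at 0.73 (SE 0.25) in naive mice and 1.12 (SE 0.32) after OFL, from low levels (3.86 ± 0.949 CPM in naive AKR and 2.33 ± 1.25 CPM in naive B6N, SD, n = 4 each). Cask alone passed the interaction, at -0.20 (SE 0.05, edgeR adjusted p = 0.0301), against 5.15% of all genes. No partner gene passed it with no filter on low counts, or without AKR naive replicate 3, B6N naive replicate 1 or 4, AKR OFL replicate 2 or 3, or B6N OFL replicate 2 or 3. The partner count after OFL was 2 with DESeq2 and 0 without B6N OFL replicate 2.

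Between OFL and naive libraries 20 of the 22 tested partner genes passed in each strain, 11 higher and 9 lower, near the background. Nrxn3, encoding a presynaptic neurexin, differed by 1.13 in AKR and 1.04 in B6N, and C1ql3, encoding a ligand that binds it and kainate receptors, by 1.62 and 1.5. Camk2a, encoding a kinase of the postsynapse, differed by -1.17 and -1.32, and Dlg4, encoding the scaffold PSD-95, by -0.85 and -1.03. Most marker lists of cortical cells were lower in the OFL libraries, against 38.8% of all genes lower in AKR and 38.4% in B6N. In AKR the markers called lower were 8 of 8 for inhibitory neurons, 4 of 6 for glutamatergic neurons and 4 of 5 each for oligodendrocytes, astrocytes and microglia. In B6N they were 8 of 8, 5 of 6, 3 of 5, 4 of 5 and 3 of 5 in the same order of lists. Of 5 markers of oligodendrocyte precursors, 2 were higher and 2 lower in each strain. Inhibitory neuron markers summed to 711 to 776 CPM in AKR after OFL, 1130 to 1190 CPM in naive AKR, 659 to 692 CPM in B6N after OFL and 1050 to 1180 CPM in naive B6N. In bulk tissue, fewer cells of a type and less RNA per cell cannot be told apart. Short genes and genes rich in GC also tended to be lower in the OFL libraries, as described above. The partner and marker values given here carry no offsets for GC content and exon length. The shares of all genes called lower are not matched for either property. The part of cell composition, GC content or exon length in the partner and marker differences was not tested.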

How the data were processed

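RNA of 14 anterior cingulate cortex samples was sequenced. Per the submitters' processing notes the build was GRCm38 and the tools were TopHat2 2.1.1, cutadapt 2.7, HTSeq, CASAVA and edgeR. The annotation release and whether counting used strand are not given in the sources used here. The authors deposited raw counts per Ensembl gene in a naive and an OFL table, and all 14 columns were used. No columns were identical.

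Gene names, positions and merged exon lengths came from GENCODE M21, which named 53360 of 53465 identifiers. Counts were tested with edgeR 4.0.16 in R 4.3.3: expression filter by group, TMM scaling, two-sided quasi-likelihood F-test, Benjamini-Hochberg adjustment over all genes tested, with calls made under 0.05. Strain differences were fitted within each table. OFL minus naive differences and the interaction came from 1 fit of 4 groups. Intervals are 95% and use the moderated degrees of freedom. Levels are CPM scaled by TMM over all 14 libraries. Log2 profiles used a prior count of 1.

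The members, the 23 partner genes and the marker lists were chosen with earlier results of these data known. Every member is named in every comparison, called partner genes may be named, and the 3 most alike genes with at least 5 CPM are given for members called in naive mice, except that a gene alike to Neto2 is not reported here. The tests were tried on simulated counts with the same spread for every gene, and no result above rests on that trial. Alternatives were DESeq2 1.42.0, other scaling factors, other filters, protein-coding genes only, leaving out each library, a replicate block, and offsets for GC and exon length (lowess per library), the last added after the data were seen.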

Additional observations from a re-analysis of the deposited data

Results flagged for a closer look

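Of 14 groups of 4 libraries examined (7 genes in 2 strains, naive), 2 had a library set apart from the other 3, and about 1 in 20 would be set apart by chance. Both were AKR naive replicate 1, which was lowest for Grik3 (137 CPM, the other 3 at 171 to 177) and for Neto1 (63.2 CPM, the other 3 at 67.7 to 68.6). Without this library the naive strain difference of Neto1 was -0.11 and still passed (edgeR adjusted p = 0.038).

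The OFL minus naive difference of Grik4 differed between the strains, with an interaction of 0.33 on the log2 scale (edgeR adjusted p = 0.0407). Its values without single libraries stand above. The adjusted p ran from 0.0176 to 0.0499 over the 8 alternatives that kept all libraries.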

How the results depend on the processing

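Of the 294 member values recomputed with all libraries, 265 kept their direction and their side of the threshold. Without a change of sign 12 lost the call and 4 gained it, and 13 changed sign. Some that changed sign also lost the call. They were the OFL minus naive values of Grik2 in both strains and of Grik5 and Neto2 in AKR, with the offsets. Of 392 values with a library left out, the counts in the same order were 347, 26, 5 and 14. With the offsets for GC and exon length, added after the data were seen, called members numbered 1 in naive mice and 2 for OFL minus naive in AKR, partner genes called after OFL numbered 9, and values that changed sign were Grik2 at 0.03 in naive mice and 0.02 after OFL, Grik3 at -0.02 after OFL and -0.02 in the interaction, and, for OFL minus naive, Grik2 (-0.05), Grik3 (0.06), Grik5 (0.04), Neto1 (-0.60) and Neto2 (-0.06) in AKR and Grik2 (-0.05), Grik3 (0.08) and Neto2 (-0.09) in B6N. With protein-coding genes only, Neto1 was at 0.06 for OFL minus naive in B6N. With DESeq2 0 members and 2 partner genes were called after OFL, where edgeR called 1 and 5. With no filter on low counts 0 partner genes passed the interaction.

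With a library left out, called members ranged from 1 to 4 in naive mice, 0 to 1 after OFL, 5 to 6 in each OFL minus naive comparison and 0 to 1 in the interaction. Called partner genes ranged from 7 to 12, 0 to 7 and 0 to 4 in naive mice, after OFL and in the interaction. All genes called after OFL ranged from 1934 (without B6N OFL replicate 2) to 3514. Values near 0 changed sign: Grik3 -0.03 to 0.10 in naive mice, Grik1 -0.07 to 0.07, Grik2 -0.05 to 0.03 and Grik3 -0.03 to 0.10 after OFL, and Grik3 -0.06 to 0.09 and Neto2 -0.04 to 0.09 in the interaction. Same-numbered libraries of different groups did not deviate together (correlations of -0.103 to 0.128), so the numbers pair nothing. With the replicate block the interaction of Grik4 was 0.33, 0 partner genes passed the interaction, and Neto2 in naive mice did not pass (edgeR adjusted p = 0.0533). Depth was lowest for Grik4 and Grik1, from 361 and 389 reads in a library, so counting error is largest, relative to the level, in these genes. The causes of these changes were not tested.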
